A study of Homo sapiens with 12 samples.

Results

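The CDK inhibitors and the GADD45 family are 10 genes, taken as the genes of the expression table whose symbol was CDKN1A, CDKN1B, CDKN1C, CDKN2A, CDKN2B, CDKN2C, CDKN2D, GADD45A, GADD45B or GADD45G. They are 10 of 19973 genes listed, and each symbol matched a single gene. RNA-seq was done in H460 and A549, human non-small cell lung cancer (NSCLC) cell lines labelled as wild type. The groups were as follows. H460 control and A549 control were non-treated, and H460 ISP-I and A549 ISP-I were treated for 48 h with ISP-I at 10 µM. ISP-I is isovalerylspiramycin I, a macrolide isolated from the antibiotic carrimycin. Each group had 3 libraries, 12 in all. The study kept ISP-I in DMSO and the labels give the RNA controls as non-treated, so drug and solvent cannot be told apart. The labels do not say whether the libraries of a group came from separate cultures, and p-values then measure only the spread between these samples.

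CDK inhibitors are the brakes of the cell cycle engine. The CIP/KIP proteins p21 (CDKN1A), p27 (CDKN1B) and p57 (CDKN1C) bind cyclin-CDK complexes broadly, CDK2 complexes above all. The INK4 proteins p16 (CDKN2A), p15 (CDKN2B), p18 (CDKN2C) and p19 (CDKN2D) bind CDK4 and CDK6 and keep them from their D-type cyclins. The GADD45 proteins are small acidic stress proteins that bind the kinase MTK1 (MAP3K4), PCNA, p21 and the CDK1-cyclin B complex of the G2/M step. CDKN1A and the GADD45 genes are classic early responders to DNA damage and other stress, and CDKN2A is often deleted in lung cancer lines, H460 and A549 among them.

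The regulatory DNA just before the start site was read for CDKN1A, GADD45B and GADD45G, which rose together in H460, and for CDKN2C, which fell in both lines. The windows are the 250 bases before a RefSeq start (GRCh38.p14), 5′ to 3′ on the gene's strand, with matches in capitals on either strand to the GC box (GGGCGG), the CCAAT box (CCAAT), the TATA box (TATAAA), the E-box (CACGTG) and the EGR site (GCGNGGGCG). The CRE (TGACGTCA), the AP-1 site (TGACTCA), a C/EBP-ATF site (TGATGCAA) and a FOXO site (GTAAACA) were searched too. GC boxes and EGR sites can overlap. The windows lie at chr6:36678464-36678713 (CDKN1A), chr19:2475877-2476126 (GADD45B), chr9:89604762-89605011 (GADD45G) and chr1:50968456-50968705 (CDKN2C), all on the plus strand. The CDKN1A and CDKN2C windows lie inside the spans the expression table gives these genes, since its annotation lists starts farther upstream.
CDKN1A: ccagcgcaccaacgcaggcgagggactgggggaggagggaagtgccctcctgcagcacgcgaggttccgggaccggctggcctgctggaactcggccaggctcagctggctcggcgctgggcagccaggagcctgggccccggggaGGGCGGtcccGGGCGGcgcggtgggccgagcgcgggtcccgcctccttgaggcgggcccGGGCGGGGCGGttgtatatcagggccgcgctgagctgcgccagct
GADD45B: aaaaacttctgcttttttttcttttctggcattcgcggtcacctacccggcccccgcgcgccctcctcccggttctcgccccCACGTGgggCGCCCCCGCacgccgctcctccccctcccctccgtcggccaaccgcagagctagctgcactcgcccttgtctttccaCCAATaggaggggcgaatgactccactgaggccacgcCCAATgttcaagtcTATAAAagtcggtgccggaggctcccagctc
GADD45G: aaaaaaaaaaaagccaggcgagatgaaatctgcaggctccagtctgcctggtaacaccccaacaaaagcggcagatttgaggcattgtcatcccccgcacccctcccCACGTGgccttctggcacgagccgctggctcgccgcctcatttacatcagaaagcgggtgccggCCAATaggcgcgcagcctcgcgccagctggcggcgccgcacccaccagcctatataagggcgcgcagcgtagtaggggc
CDKN2C: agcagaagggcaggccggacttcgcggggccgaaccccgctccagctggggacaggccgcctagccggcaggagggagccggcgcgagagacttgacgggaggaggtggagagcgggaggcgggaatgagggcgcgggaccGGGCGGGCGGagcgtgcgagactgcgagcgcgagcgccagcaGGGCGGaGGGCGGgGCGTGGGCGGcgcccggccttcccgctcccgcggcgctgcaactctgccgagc

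The windows of GADD45B and GADD45G shared letters that the CDKN1A window did not hold. GADD45B had CACGTG 162 bases before the start and CCAAT 77 and 40 bases before it, with TATAAA at 25 bases and an EGR match at 150 bases. GADD45G had CACGTG at 137 bases and CCAAT at 74 bases. CDKN1A had 4 GC boxes between 98 and 34 bases before the start and none of the other 8 motifs. This CDKN2C window had 5 GC boxes, some overlapping, and an EGR match that overlaps the last of them. Of 35116 windows of the same length in the RefSeq table, 42.6% held a GC box, 32% CCAAT, 10.7% TATAAA, 6.34% CACGTG and 8.41% the EGR letters. CRE, AP-1, C/EBP-ATF and FOXO letters stood in 1.65%, 4.2%, 0.772% and 2.98% of windows and in none of the 11 windows of the 8 members matched in the table. CDKN2C has 2 further windows there, with CACGTG at 214 bases before the start in one and at 63 bases in the other, which also holds CCAAT at 90 bases. CACGTG and CCAAT together were therefore not particular to members that rose. These matches describe the letters only. GADD45A and CDKN1C had no entry.

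The level of a gene is given in FPKM, the reads counted on it per kilobase of its listed length scaled to the library's reads on genes. Levels, shares and ratios between different genes depend on those listed lengths, which need not be the lengths of the transcripts expressed. The libraries held 14225849 to 17874422 reads on genes. Genes averaging 0.1 FPKM or more were tested with limma on log2(FPKM + 1), and p-values were adjusted over all of them (Benjamini-Hochberg). A call needed more than a 2-fold change together with an adjusted p below 0.05, and "rose" or "fell" is used at that adjusted p. Most genes passed that adjusted p, so a rise or fall without a call does not set a gene apart. In H460 3711 of 13423 genes rose and 5576 fell, and in A549 4185 of 13705 rose and 3702 fell. Log2 values are on the log2(FPKM + 1) scale, which understates the change of low genes, and folds are ratios of mean FPKM. In H460 the median of all genes was -0.15. Median-of-ratios scaling moved it to 0.01, with 1924 genes called higher and 1435 lower in place of 1409 and 2047. Every H460 change therefore depends on the scale, and some members moved more than the median did. With that scaling the H460 log2 fold change of CDKN1A was 3.11 in place of 2.84, and that of GADD45A 3.645 in place of 3.369. The keratin genes KRT8, KRT18 and KRT19 were at 45.6 FPKM or more in every group mean, but CDH1 was at 0 and EPCAM at 0.0473 FPKM in H460 controls, against 4.90 and 1.91 in A549 controls. The 6 markers of leukocytes, endothelium and fibroblasts summed to 0.719 to 1.631 FPKM per library, mostly COL1A1.

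In H460, 5 of the 8 tested members were called higher after ISP-I and 1 was called lower, where 10.5% of all 13423 genes were called higher and 15.2% lower. The 5 were CDKN1A, CDKN1C, GADD45A, GADD45B and GADD45G, and the 1 was CDKN2C. In A549, 4 of 8 were called higher and 1 lower, where 4.2% of 13705 genes were called higher and 3.51% lower. The 4 were CDKN1A, CDKN1C, GADD45A and GADD45G, and the 1 was again CDKN2C. GADD45G averaged 0.0171 FPKM in A549 controls and passed the 0.1 FPKM filter there only through the ISP-I libraries. Its place in the A549 count and median therefore depended on its rise. The median log2 fold change of the tested members was 2.03 in H460, against -0.15 for all genes, and 1.0 in A549, against 0.02. CDKN2A and CDKN2B were below 0.1 FPKM on average in both lines and were not tested. In bulk RNA, a change in the share of cells that express a gene and a change in the RNA per cell cannot be told apart.

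**Figure D1:**
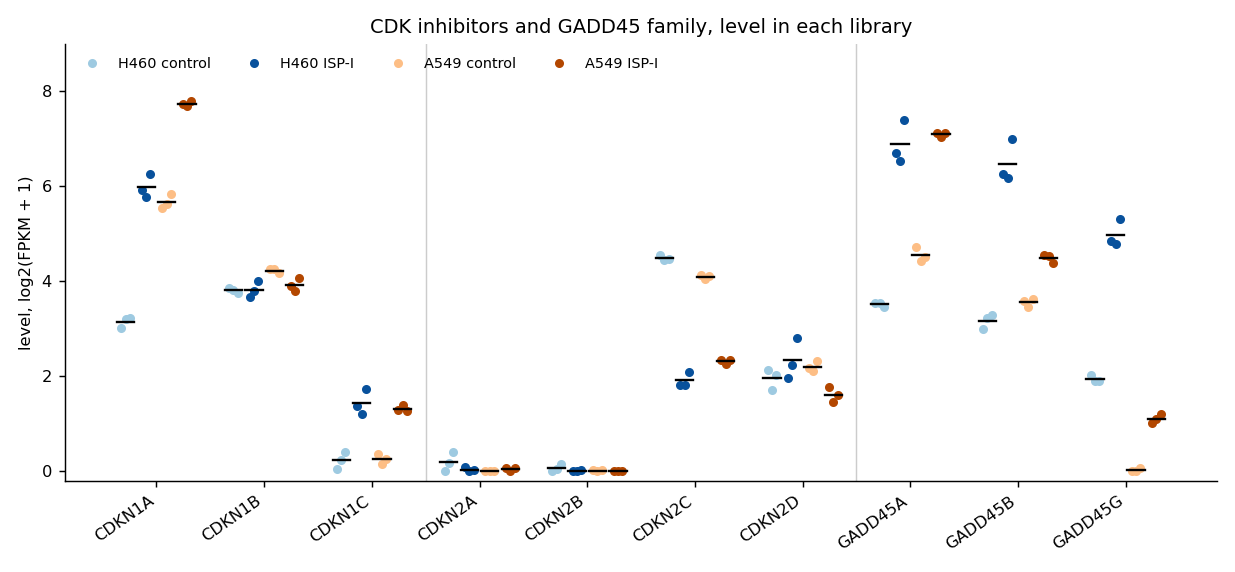
Level of each member in each of the 12 libraries on a log2(FPKM + 1) axis, with 1 point per library and a bar at the mean of each group of 3. CDKN1A, CDKN1C and the GADD45 genes sit higher after ISP-I in both lines, CDKN2C sits lower, and CDKN2A and CDKN2B lie near 0 throughout.

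CDKN1A (chromosome 6, 36676460 to 36687337, hg38) encodes p21, the general CDK inhibitor. Its level was 7.10, 8.22 and 8.36 FPKM in the H460 control libraries and 59.7, 53.8 and 75.8 FPKM after ISP-I. All H460 ISP-I libraries were above all H460 controls. The mean went from 7.89 ± 0.690 to 63.1 ± 11.4 (SD, n = 3), 8.0-fold, a log2 fold change of 2.84 (SE 0.148, limma adjusted p 1.3e-06). In A549 it was 45.7, 48.4 and 56.7 FPKM in controls and 211.6, 206.2 and 222.6 FPKM after ISP-I, and again the groups did not overlap. The mean went from 50.3 ± 5.71 to 213.5 ± 8.38, 4.25-fold, a log2 fold change of 2.07 (SE 0.090, limma adjusted p 1.32e-06).

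The starting level of CDKN1A separated the lines more than any other CIP/KIP gene did. Non-treated H460 held 0.157 of the CDKN1A level of non-treated A549 (log2 -2.52, limma adjusted p 2.04e-07). ISP-I libraries of H460 overlapped the A549 controls in CDKN1A level, with 53.8 against 56.7 FPKM at the nearest libraries. That pair of groups was not tested. After ISP-I, H460 still held 0.296 of the A549 level (log2 -1.76, limma adjusted p 2.28e-05). CDKN1A stood at rank 134 of 19973 genes by mean FPKM in A549 ISP-I and at rank 628 in H460 ISP-I. The rise was larger in H460 by 0.77 on the log2 scale (SE 0.178, interaction adjusted p 0.00317 by limma), which is under the 2-fold limit of a call. With median-of-ratios scaling the same difference was 1.08 and was called.

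CDKN1B (chromosome 12, 12715058 to 12722369) encodes p27, which is regulated largely through protein stability. In H460 its level was 13.5, 13.2 and 12.6 FPKM in controls and 11.8, 13.0 and 15.0 FPKM after ISP-I. The ISP-I values spanned the control values, and the log2 fold change was 0.01 (95% interval -0.265 to 0.286, limma adjusted p 0.943). In A549 it was 18.1, 18.1 and 17.0 FPKM in controls and 14.0, 13.0 and 15.9 FPKM after ISP-I. All A549 ISP-I libraries were below all controls, and the level fell by 0.30 on the log2 scale (limma adjusted p 0.0161), under the limit of a call. The difference of the effects between the lines was 0.31 (adjusted p 0.0821 by limma).

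CDKN1C (chromosome 11, 2883213 to 2885775, minus strand) encodes p57, an imprinted inhibitor that is low in most cultured tumour lines. In H460 controls it had 1, 7 and 12 reads (0.0280, 0.186 and 0.325 FPKM), and after ISP-I 71, 54 and 86 reads (1.60, 1.31 and 2.34 FPKM). In A549 controls it had 10, 4 and 7 reads (0.283, 0.110 and 0.191 FPKM), and after ISP-I 54, 64 and 50 reads (1.46, 1.65 and 1.41 FPKM). The gene thus stood near the detection limit in both non-treated lines and at 1.31 FPKM or more in each ISP-I library. The log2 fold change was 1.21 in H460 (SE 0.148, limma adjusted p 0.000122) and 1.07 in A549 (SE 0.077, limma adjusted p 1.41e-05). Per library depth, the summed reads were 9.5-fold higher in H460 (20 against 211 reads, exact 95% interval 6.0 to 15.9) and 7.77-fold higher in A549 (21 against 168, 4.92 to 12.9), intervals that cover counting error only. The effects of the lines differed by 0.14 on the log2 scale (95% interval -0.249 to 0.534, limma adjusted p 0.522).

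Within a library, the 3 CIP/KIP genes changed their balance. CDKN1B made up 61.9% ± 3.29 (SD, n = 3) of their summed FPKM in H460 controls, and CDKN1A 37.3% ± 2.61. After ISP-I, CDKN1A made up 80.7% ± 1.46. In A549 the share of CDKN1A was 73.6% ± 2.83 in controls and 93.1% ± 0.293 after ISP-I. CDKN1C stayed at 2.51% or less in every library. Their summed FPKM was 21.2 ± 0.454 in H460 controls and 78.1 ± 13.3 after ISP-I, and 68.2 ± 5.06 and 229.3 ± 9.73 in A549.

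CDKN2C (chromosome 1, 50960745 to 50974634) encodes p18, an INK4 inhibitor known as an E2F target that is high in cycling cells. It was the only tested member called lower in either line. Its level was 22.5, 20.8 and 21 FPKM in H460 controls and 2.54, 2.53 and 3.28 FPKM after ISP-I. In A549 it was 16.5, 15.5 and 16.3 FPKM in controls and 4.06, 3.82 and 4.04 FPKM after ISP-I. The groups lay far apart in both lines, with no library between 4.06 and 15.5 FPKM. ISP-I left 0.13 of the control mean in H460 (log2 -2.57, SE 0.120, limma adjusted p 8.2e-07) and 0.247 in A549 (log2 -1.78, SE 0.068, limma adjusted p 8.03e-07). Among falling genes it stood at rank 104 of 13423 in H460 and 54 of 13705 in A549. The fall was larger in H460 by 0.80 on the log2 scale (limma adjusted p 0.0002), under the limit of a call.

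CDKN2D (chromosome 19, 10566460 to 10569059, minus strand) encodes p19, the other INK4 inhibitor with a measurable level. In H460 it was 3.37, 2.27 and 3.08 FPKM in controls and 2.90, 3.75 and 6.0 FPKM after ISP-I, with overlapping groups (log2 0.38, 95% interval -0.110 to 0.878, limma adjusted p 0.143). That H460 change depended on the scaling. It was 0.61 with median-of-ratios scaling and 0.62 with quantile normalization (limma adjusted p 0.0339 and 0.0262). Limma voom with median-of-ratios factors gave 0.76 (adjusted p 0.0432). None of these was called. In A549 it was 3.50, 3.35 and 4.0 FPKM in controls and 2.40, 1.74 and 2.04 FPKM after ISP-I. All A549 ISP-I libraries were below the controls, and the level fell by 0.60 on the log2 scale (limma adjusted p 0.0015) without reaching 2-fold. The difference between the lines was 0.98 (SE 0.260, interaction adjusted p 0.00724 by limma), just under the limit of a call. It was over that limit in 11 of the alternative settings and not in the others. Leaving out each library in turn gave 0.747 to 1.17. CDKN2D was therefore the member whose point estimates had opposite signs in the lines with an interaction past the adjusted p.

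CDKN2A (chromosome 9, 21967752 to 21995301, minus strand) encodes p16 and ARF, and CDKN2B (chromosome 9, 22002903 to 22009305, minus strand) encodes p15. CDKN2A had 0, 8 and 19 reads in the H460 control libraries and 4, 0 and 1 after ISP-I. In A549 it had 0 reads in all 3 controls and 3, 0 and 3 after ISP-I. CDKN2B had 0, 2 and 7 reads in H460 controls, 0, 0 and 1 in H460 ISP-I, 1, 0 and 1 in A549 controls and 0 in all 3 A549 ISP-I libraries. H460 control libraries 2 and 3 for CDKN2A and library 3 for CDKN2B were the libraries with more than 4 reads. A count of 0 allows up to 3 reads, 0.042 to 0.0543 FPKM for these genes, so most libraries lay at or below that limit for both genes.

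The genes around this locus on 9p21 showed where the table had reads. MTAP, the methylthioadenosine phosphorylase gene 30101 bases from CDKN2A, was at 4.93 ± 0.208 FPKM in H460 controls and at 0.0332 ± 0.0207 in A549 controls, 148.8-fold more reads in H460 per depth (exact 95% interval 97.2 to 240.6). KLHL9, IFNE and FOCAD, on the same side as MTAP but farther out, had reads in both lines. HACD4, between KLHL9 and FOCAD, was at 0.0123 ± 0.0152 FPKM in H460 controls and at 0.310 ± 0.0639 in A549 controls. On the other side of the locus, DMRTA1 was at 0.238 ± 0.0527 FPKM in H460 controls and at 0.435 ± 0.0277 in A549 controls, whereas ELAVL2, an RNA-binding protein gene farther out, was at 1.26 ± 0.133 FPKM in H460 controls and had a mean of 0 in A549 controls. Of the 7 genes of this list tested between the non-treated lines, 2 were called higher in H460 and the other 5 were lower there at an adjusted p below 0.05 (limma) without being called. Among all 13532 genes tested, 5.64% were called higher in H460, and 4276 were lower there at that adjusted p, called or not. FOCAD fell in both lines (log2 -0.73 in H460 and -0.37 in A549, limma adjusted p 0.00152 and 0.0039). IFNE, an interferon gene, rose in H460, 0.502 to 1.71 FPKM (limma adjusted p 0.000757), and was called in A549, 1.56 to 4.31 FPKM (log2 1.07, limma adjusted p 0.000236), a call lost without A549 control library 3. KLHL9 rose by 0.62 and 0.67 on the log2 scale (limma adjusted p 0.00241 and 0.000669). None of the 6 genes of this list tested in H460 was called by limma. In H460 2 of the 6 rose and 2 fell, where 3711 and 5576 of all 13423 genes did. Limma voom called 1 of the 6, where with library totals it called 2451 of all genes higher and 3706 lower.

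The summed INK4 level went down with CDKN2C. CDKN2C was 87.4% ± 1.95 of their summed FPKM in H460 controls and 40.6% ± 5.49 after ISP-I, and 81.6% ± 1.24 and 65.7% ± 3.23 in A549. CDKN2D made up 59.0% ± 5.87 in H460 ISP-I. Their summed FPKM was 24.6 ± 1.32 in H460 controls and 7.03 ± 2.02 after ISP-I, and 19.7 ± 0.792 and 6.07 ± 0.481 in A549.

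GADD45A (chromosome 1, 67685201 to 67688334) is the founding member of its family, known as a DNA damage response gene. Its level was 10.7, 10.7 and 9.94 FPKM in H460 controls and 103.1, 92.2 and 168.6 FPKM after ISP-I. The lowest ISP-I library was far above the highest control, and library 3 stood above its 2 partners. The mean went from 10.4 ± 0.429 to 121.3 ± 41.3 FPKM, 11.6-fold, a log2 fold change of 3.37 (SE 0.211, limma adjusted p 3.01e-06). In A549 it was 25.5, 20.6 and 21.9 FPKM in controls and 139.6, 131.0 and 137.8 FPKM after ISP-I, 6.01-fold (log2 2.54, SE 0.086, limma adjusted p 5.08e-07). It stood at rank 35 of 13705 among rises in A549 and 74 of 13423 in H460, the highest rank of any member in either line. The lines differed before treatment, at 0.460 of the A549 level in H460 (log2 -1.05, limma adjusted p 2.9e-05, and -0.96 and no longer called without A549 control library 1). After ISP-I their ranges overlapped (log2 -0.22, 95% interval -0.723 to 0.291, adjusted p 0.4 by limma). The rise was larger in H460 by 0.83 (adjusted p 0.0141 by limma), under the limit of a call, and 1.14 with median-of-ratios scaling.

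GADD45B (chromosome 19, 2476122 to 2478259) is the member known as an NF-kB and TGF-beta target. Its level was 6.99, 8.38 and 8.79 FPKM in H460 controls and 75.5, 71.1 and 126.9 FPKM after ISP-I. In A549 it was 11, 9.99 and 11.4 FPKM in controls and 22.4, 22.3 and 20.0 FPKM after ISP-I. ISP-I libraries were above controls in both lines, but the H460 values after ISP-I started at 71.1 FPKM and the A549 values ended at 22.4. The rise was 11.3-fold in H460 (log2 3.30, SE 0.216, limma adjusted p 3.65e-06) and 1.995-fold in A549 (log2 0.93, SE 0.079, limma adjusted p 3.05e-05), which lies just under the limit of a call. The effects differed by 2.37 on the log2 scale (SE 0.251, interaction adjusted p 9.65e-06 by limma). Before treatment H460 held slightly less than A549 (log2 -0.39, limma adjusted p 0.0121), and after it 4.23-fold more (log2 1.98, limma adjusted p 0.000102).

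GADD45G (chromosome 9, 89605012 to 89606555) is the family member often silenced in tumour lines. In H460 it had 59, 55 and 54 reads in controls (3.10, 2.74 and 2.74 FPKM) and 654, 583 and 760 reads after ISP-I (27.7, 26.5 and 38.7 FPKM). The rise was 10.8-fold (log2 3.03, SE 0.155, limma adjusted p 1.21e-06). In A549 it had 0, 0 and 1 read in controls and 20, 24 and 25 reads after ISP-I (1.01, 1.16 and 1.32 FPKM). The gene was therefore at the detection limit in A549 controls and low but measurable after ISP-I. On the log2(FPKM + 1) scale that rise was 1.09 (SE 0.070, limma adjusted p 8.25e-06). The reads went from 1 to 69, a ratio of 67.1 per depth with an exact 95% interval of 11.6 to 2686, while in H460 the ratio was 10.7 (9.14 to 12.6).

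The difference between the lines in GADD45G depends on the scale. It was 1.94 with a pseudocount of 1 (SE 0.177, interaction adjusted p 2.86e-06 by limma), so that more FPKM were gained in H460. It was -0.08 with a pseudocount of 0.1 (adjusted p 0.822 by limma), and -1.57 and -1.26 by limma voom on the recovered reads with library totals and with median-of-ratios factors (adjusted p 0.113 and 0.204). The level itself was higher in H460 before treatment (log2 1.92, limma adjusted p 1.35e-07) and after it (log2 3.87, limma adjusted p 6.96e-07). The 4 groups did not overlap in GADD45G, in the order A549 control, A549 ISP-I, H460 control and H460 ISP-I.

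**Figure D2:**
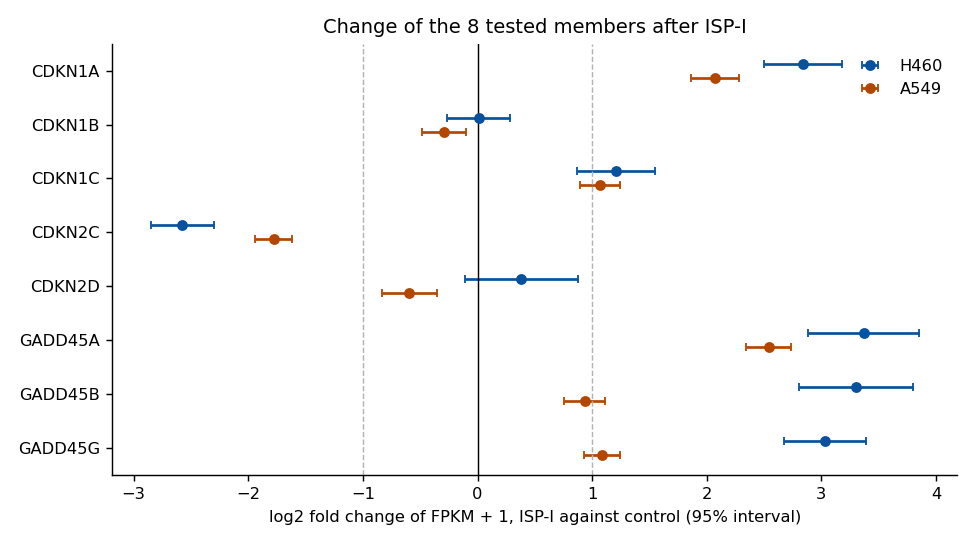
Log2 fold change of FPKM + 1 after ISP-I for the 8 tested members in each line, points with 95% intervals from limma and dashed lines at the 2-fold limit. The GADD45B points of the lines lie farthest apart, 3.30 in H460 and 0.93 in A549, and CDKN2C lies at -2.57 and -1.78.

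The composition of the GADD45 family stayed alike in H460 and shifted in A549. In H460 controls GADD45A, GADD45B and GADD45G made up 48.9% ± 2.58, 37.7% ± 3.71 and 13.4% ± 1.31 (SD, n = 3) of the summed FPKM. After ISP-I they made up 49.7% ± 0.971, 37.4% ± 0.684 and 13.0% ± 1.24, each less than the control SD away, while the sum went from 21.3 ± 0.516 to 243.4 ± 79.1 FPKM. In A549 the share of GADD45A went from 67.6% ± 2.18 to 85.7% ± 0.888 and that of GADD45B from 32.3% ± 2.11 to 13.6% ± 0.938. The A549 sum went from 33.5 ± 2.96 to 158.9 ± 4.28 FPKM. GADD45G stayed at 0.828% or less of the A549 sum in every library.

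**Figure D3:**
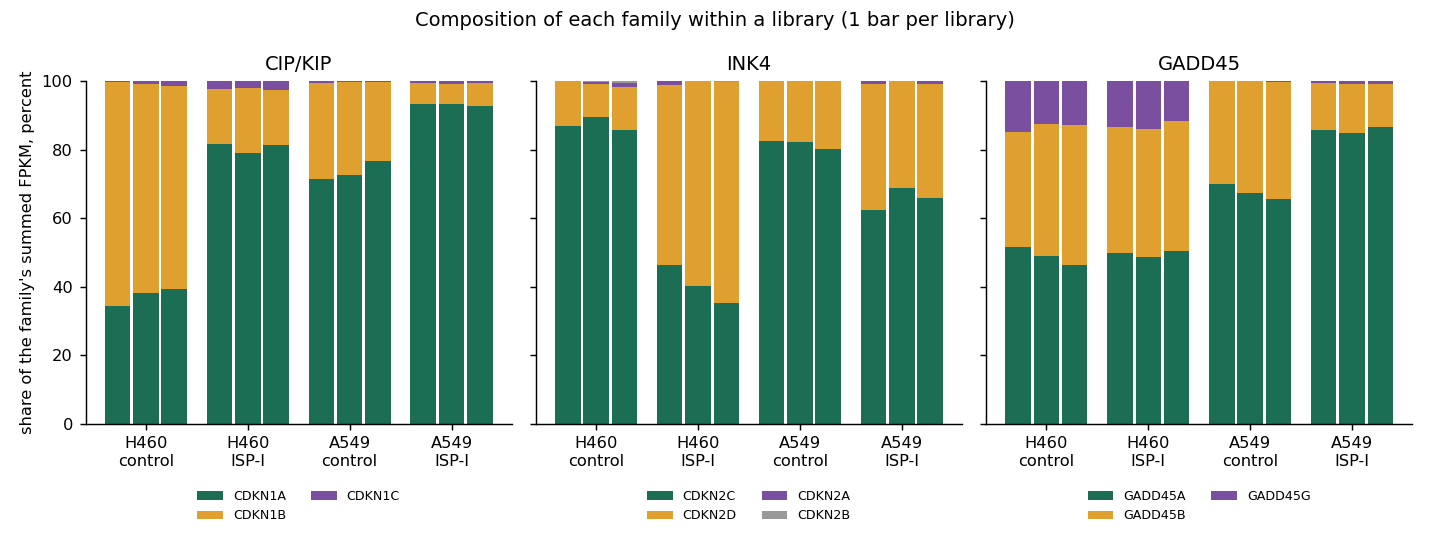
Share of each member in its family's summed FPKM, in percent, with 1 stacked bar per library and 3 bars per group. The GADD45 bars look alike before and after ISP-I in H460, at 48.9% and 49.7% GADD45A, and differ in A549, at 67.6% and 85.7%.

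Between the lines, 2 of 8 tested members had a called difference in the ISP-I effect, GADD45B and GADD45G. Both were more positive in H460 on the log2(FPKM + 1) scale, where 5.93% of all 13953 genes were called in that direction and 10.1% in the other. The GADD45G difference was not called with a pseudocount of 0.1 or by voom, and it ranged from -1.57 to 2.27 over such settings. Before treatment 1 of 8 was called higher in H460 (GADD45G) and 2 lower (CDKN1A and GADD45A), where 5.64% of all genes were called higher and 8.78% lower. GADD45G passed the 0.1 FPKM filter there only through the H460 libraries. After ISP-I 2 of 8 were called higher in H460 (GADD45B and GADD45G) and 1 lower (CDKN1A), where 7.67% of all genes were called higher and 16% lower. With median-of-ratios scaling the split of all genes turned, to 1298 positive and 825 negative differences in place of 827 and 1407, and to 1615 higher and 1509 lower after ISP-I in place of 1069 and 2232. These comparisons share libraries with the comparisons within the lines.

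H460 ISP-I library 3 was the highest of its group for 8 of 8 tested members, where it was the highest for 34.2% of all 13423 genes tested. Without it the log2 fold changes in H460 were 2.70 for CDKN1A, 3.11 for GADD45A, 3.04 for GADD45B, 2.86 for GADD45G and -2.67 for CDKN2C. That of CDKN2D was 0.15 without it, in place of 0.38. The coefficient of variation among the H460 ISP-I libraries was 34.1% for GADD45A and 34% for GADD45B, against 3.31% and 6.29% in A549 ISP-I.

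Over all 12 libraries, the levels of some members moved together and others did not. Pearson's r of log2(FPKM + 1) was 0.952 between GADD45A and CDKN1C, 0.873 between GADD45A and CDKN1A, and -0.959 between GADD45A and CDKN2C. It was lower between other members called higher in H460, at 0.474 between CDKN1A and GADD45B and 0.418 between GADD45A and GADD45G. It was -0.0593 between CDKN1A and GADD45G, which are ordered differently by line. CDKN1B and CDKN2D had -0.127 and -0.0682 with GADD45A, and CDKN2D had 0.0588 with CDKN2C. The 12 libraries share 2 lines and 2 treatments, so these values describe the group pattern. Of the 6649 genes averaging 5 FPKM or more over the libraries, those most like CDKN1A were LMCD1 (r 0.996), SUPT5H (0.993) and NPTX1 (0.991), and those most like GADD45A were DNAJB2 (0.994), NFKBIB (0.992) and BAIAP2 (0.990). NFKBIB, which encodes an inhibitor of NF-kB, was at 25.8 FPKM in H460 controls and 152 after ISP-I, and at 50.8 and 143 in A549.

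Of the detected genes nearest to the members, LMNB2, SEMA4D and TSSC4 were called in at least 1 line. FAF1, which lies 478 bases from CDKN2C on the other strand, had a log2 fold change of 0.02 in H460 (limma adjusted p 0.896) and rose by 0.31 in A549 (limma adjusted p 0.00476). GNG12, 13141 bases from GADD45A, had 0.22 and 0.05 (limma adjusted p 0.173 and 0.686). SRSF3 and PPIL1 on either side of CDKN1A were not called in either line. LMNB2, the lamin B2 gene 19163 bases from GADD45B, was called lower in both lines (log2 -2.21 and -1.22, limma adjusted p 5.12e-06 and 3.5e-06). SEMA4D, 106882 bases from GADD45G, was called higher in H460 (log2 1.16, limma adjusted p 2.79e-05) and had 0.04 in A549 (limma adjusted p 0.625). TSSC4, 479335 bases from CDKN1C, was called higher in A549 (log2 1.0, limma adjusted p 0.00026) and had 0.20 in H460 (limma adjusted p 0.305). The strand setting of the counting is not known, and a member's value may therefore include antisense reads.

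The cyclins and CDKs that the inhibitors bind were called lower in 7 of 13 genes in H460 and 5 of 12 in A549, with CCNA1 called higher in H460. Among all genes 15.2% in H460 and 3.51% in A549 were called lower, and 10.5% in H460 were called higher. The list median was -1.0 in H460 and -0.88 in A549, against -0.15 and 0.02 for all genes. CCNA2, the S and G2 phase cyclin, went from 58.1 ± 5.61 to 6.41 ± 1.03 FPKM in H460 (log2 -3.00, limma adjusted p 8.2e-07) and from 49.2 ± 6.96 to 19.0 ± 0.245 in A549 (-1.32, 2.07e-05). CCNB2 and CDK1, of the mitotic complex, fell in both lines (log2 -1.91 and -1.04 for CCNB2, -1.89 and -0.97 for CDK1, all with limma adjusted p of 0.000147 or less). CCND3, a D-type cyclin, fell in both (log2 -1.66 and -1.97, limma adjusted p 1.93e-05 and 2.96e-06), as did CCNE1 (-0.99 and -1.24, 0.00017 and 4.71e-06). The ratio of CDKN1A to CDK2 within a library was 0.9 ± 0.0311 in H460 controls and 19.2 ± 1.29 after ISP-I, and 6.02 ± 0.593 and 59.1 ± 3.74 in A549.

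The RB and E2F switch downstream of these kinases had 6 of 10 genes called lower in H460 and 1 of 10 in A549. Among all genes 15.2% were called lower in H460 and 3.51% in A549, and the single A549 call lies near that share. The list median was -1.09 in H460 and -0.45 in A549, against -0.15 and 0.02 for all genes. E2F2 went from 13.1 ± 1.03 to 0.766 ± 0.118 FPKM in H460 (log2 -2.99, limma adjusted p 3.6e-07) and from 5.69 ± 0.450 to 1.80 ± 0.0431 in A549 (-1.25, 8.4e-06). TFDP1, the partner of the E2F proteins, fell in both lines (log2 -2.15 and -0.75, limma adjusted p 1.58e-06 and 2.61e-05), as did TFDP2 (-1.0 and -0.59, 5.01e-05 and 0.000321). RBL2, the p130 pocket protein, fell in H460 (log2 -1.31, limma adjusted p 2.02e-05), with -0.30 in A549 (limma adjusted p 0.0583).

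Ubiquitin ligase genes for the CIP/KIP proteins had 2 of 11 called lower in H460 and none of 11 called in A549 by limma. Of all H460 genes 15.2% were called lower, so the H460 count of the list lies near that share. In A549 2 of the 11 rose and 6 fell, where 4185 and 3702 of all 13705 genes did. Limma voom called 1 of the 11 in A549, where with library totals it called 1466 of all genes higher and 1235 lower. SKP2, the F-box protein that targets p27 and p21, went from 7.42 ± 0.340 to 0.450 ± 0.0356 FPKM in H460 (log2 -2.54, limma adjusted p 3.71e-07) and from 2.81 ± 0.379 to 1.16 ± 0.0568 in A549 (-0.81, 0.000136). UBAC1, a subunit of the ligase KPC, went from 44.1 ± 3.94 to 7.84 ± 1.52 FPKM in H460 (log2 -2.36, limma adjusted p 3.4e-06) and fell in A549 (-0.43, 0.00255). DDB1 fell in both (log2 -0.60 and -0.27, limma adjusted p 0.00202 and 0.0171). RBX1 rose in A549 (log2 0.53, limma adjusted p 0.000381) and had -0.09 in H460 (adjusted p 0.757 by limma).

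Of the binding partners of the GADD45 proteins and the p38 and JNK kinases below MTK1, 1 of 13 was called higher and 4 lower in H460, where 10.5% and 15.2% of all genes were called. In A549 1 was called higher and 1 lower, where 4.2% and 3.51% of all genes were, so that single calls lie near those shares. The list median was -0.51 in H460 and -0.03 in A549. PCNA, the sliding clamp of DNA replication, went from 212 ± 28.5 to 26.6 ± 0.874 FPKM in H460 (log2 -2.94, limma adjusted p 8.2e-07) and from 344 ± 3.63 to 192 ± 5.30 in A549 (-0.84, 2.41e-05). The ratio of GADD45A to PCNA within a library was 0.0497 ± 0.00502 in H460 controls and 4.55 ± 1.51 after ISP-I, and 0.0659 ± 0.00670 and 0.709 ± 0.0330 in A549. MAP2K3, a kinase that activates p38, went from 34.8 ± 3.83 to 169 ± 12.2 FPKM in H460 (log2 2.25, limma adjusted p 2.19e-06) and from 23.3 ± 3.47 to 51.6 ± 1.5 in A549 (1.12, 4.24e-05). MAP2K6, the other such kinase, went from 0.974 ± 0.106 to 0.104 ± 0.0294 FPKM in H460 (log2 -0.84, limma adjusted p 1.31e-05). In A549 it went from 2.47 ± 0.327 to 0.433 ± 0.0761 (-1.27, 1.28e-05). At such low levels the log2 values do not order the lines by fold. MAPK11, p38 beta, fell in both lines too (-1.76 and -0.51, limma adjusted p 3.1e-06 and 0.000875).

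Transcription regulators of CDKN1A and the GADD45 genes were called higher in 11 of 25 genes and lower in 2 in H460, and higher in 9 of 25 in A549. Among all genes 10.5% were called higher and 15.2% lower in H460, and 4.2% higher in A549. Their list median was 0.87 and 0.36, against -0.15 and 0.02 for all genes. The list includes MDM2 and does not separate activators from repressors, so its counts give no direction of regulation. EGR1 stood out, from 2.24 ± 0.252 FPKM in H460 controls and 0.530 ± 0.211 in A549 controls, with log2 fold changes of 7.87 and 4.82 (limma adjusted p 3.51e-08 and 1.09e-07). KLF6 went from 7.34 ± 0.429 to 95.2 ± 2.99 FPKM in H460 (log2 3.53, limma adjusted p 1.46e-07) and from 24.3 ± 2.20 to 66.5 ± 2.39 in A549 (1.42, 4.32e-06). ATF3 and DDIT3, stress factors of the ATF4 branch, rose in both lines, by 3.65 and 3.08 for ATF3 (limma adjusted p 4.03e-07 and 1.09e-07) and by 3.42 and 3.01 for DDIT3 (3.69e-05 and 2.07e-07). MDM2, which encodes a ubiquitin ligase, was chosen after its values were seen. It went from 6.09 ± 0.967 to 21.1 ± 0.726 FPKM in A549 (log2 1.65, limma adjusted p 7.89e-06) but had 4.08 ± 0.357 and 3.78 ± 0.465 FPKM in H460 (-0.09, 0.528), a called difference between the lines (-1.74, interaction adjusted p 2.76e-06 by limma).

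Of the other brakes on G1 and G2, listed together with genes that act on such brakes, 3 of 18 were called higher and 5 lower in H460. Among all genes 10.5% and 15.2% were called there. The listed genes are not all brakes, PPM1D and GTSE1 among them, so the counts give no direction for braking. In A549 2 of 17 were called higher and 1 lower, where 4.2% and 3.51% of all genes were, and a single call lies near those shares. The list median was -0.22 in H460 and -0.21 in A549. PPM1D, a phosphatase of the DNA damage response, was called higher in both lines (log2 1.07 and 1.45, limma adjusted p 0.000104 and 1.93e-05). BTG1 and BTG2, antiproliferative relatives, rose in both (log2 1.55 and 0.92 for BTG1, 0.80 and 1.42 for BTG2, with limma adjusted p of 0.00329 or less). GTSE1, a protein of the G2 and S phases, was called lower in both (log2 -2.51 and -1.24, limma adjusted p 2.44e-06 and 2.86e-06), and TOB1 fell in both (-1.27 and -0.43, 1.48e-05 and 0.00116).

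**Figure D4:**
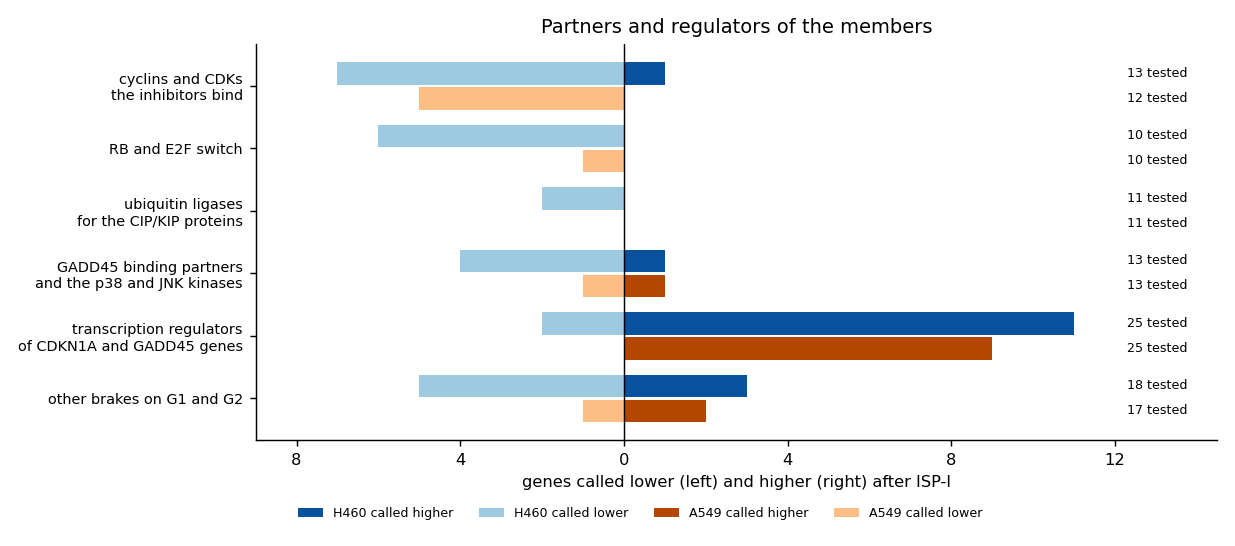
Number of genes called higher (right of 0) and lower (left of 0) after ISP-I in each list of partners and regulators, with H460 and A549 as separate bars and the number tested at the right. Cyclins and CDKs lie to the left, 7 lower in H460 and 5 in A549, and transcription regulators to the right, 11 and 9 higher.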

How the data were processed

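The data are 12 RNA-seq libraries of H460 and A549, without or with ISP-I (10 µM, 48 h). According to the submitters' notes and the study's methods, reads were filtered with FastQC, mapped to hg38 with HISAT2 and counted on genes with HTSeq 0.9.1, and the authors deposited FPKM. The annotation version and strand setting are not given in the sources used here. The deposited gene length was used to recover reads, for the detection limits in FPKM and for the simulated data. Of the recovered values 100% were whole within 0.01 of a read. The 4 lines of the table that were pieces of an overlong cell were left out.

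Columns name line and treatment only, so libraries are numbered by their order within a group. Groups were compared with limma 3.58.1 (trend) in R 4.3.3 on log2(FPKM + 1) of genes averaging 0.1 FPKM or more, each line in its own fit, and the difference between the lines as the interaction in a fit of all 12 libraries, with Benjamini-Hochberg adjustment over all genes. The fits were tested on simulated data, in which few genes changed, none of them low, with a fixed spread and up and down alike. That test does not cover genes near the detection limit or a shift of the scale like that of H460. Intervals of read ratios are exact 95% intervals. The members and the 12 gene lists were chosen with earlier results of these data known. Named genes were all members, for each list the 3 smallest p in each line, the 3 genes most like CDKN1A and GADD45A, and the nearest detected neighbours. CCNA1, CDK2, DMRTA1, ELAVL2, EPCAM, HACD4 and MDM2 fall outside this rule and were chosen after their values were seen. A member of the list of transcription regulators is counted but not reported here. Python 3.11.15, pandas 2.3.3 and numpy 2.4.6 were used. As alternatives, the pseudocount was set to 0.1, the filter to 1 FPKM or removed, FPKM were rescaled by median-of-ratios or quantiles, recovered reads were fitted with limma voom, all 12 libraries were fitted together, and each library was left out in turn.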

Additional observations from a re-analysis of the deposited data

Results flagged for a closer look

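The effect of ISP-I on GADD45B differed between the lines, H460 minus A549, by 2.37 on the log2 scale (limma interaction, adjusted p 9.65e-06), and all 3 ISP-I libraries of each line were above its controls. The effect on GADD45G differed by 1.94 (limma interaction, adjusted p 2.86e-06) on the log2(FPKM + 1) scale, a difference that changed sign on scales closer to plain ratios.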

How the results depend on the processing

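No paired analysis was possible because the columns of the table carry no replicate numbers of the labels. Of 595 values for single members under the alternatives, 561 kept their direction and side of the threshold, 17 came to pass it, 1 no longer passed it and 16 changed sign. The calls of CDKN1A, CDKN1C, CDKN2C, GADD45A and GADD45G after ISP-I in each line, and of GADD45B in H460, held under every alternative that tested the gene. With a mean of at least 1 FPKM, 3 members were called in A549 in place of 5, because CDKN1C and GADD45G were not tested. Members with a called difference between the lines numbered 5 with median-of-ratios scaling and 4 with voom and the same factors, in place of 2. CDKN1A, CDKN2D and GADD45A were added in both, and GADD45G was lost with voom. Signs changed in the GADD45G difference (-0.0798 with a pseudocount of 0.1, -1.57 and -1.26 by voom), in CDKN1B in treated H460 against A549 (0.21 with median-of-ratios, 0.0144 with quantile normalization, 0.22 by voom with median-of-ratios), in GADD45A there (0.12 with both median-of-ratios settings) and in CDKN2C there (0.0151 with quantile normalization). CDKN1C in non-treated H460 against A549 was 0.0564 with quantile normalization. Leaving out each library gave -0.0777 to 0.0870 for CDKN1B in H460, -0.00596 to 0.26 for the CDKN1C difference, -0.11 to 0.0716 for CDKN1C between the non-treated lines and -0.0297 to 0.24 between the treated lines. The cause was not tested. Over all genes, a pseudocount of 0.1 called 2322 genes higher and 3464 lower in H460, against 1409 and 2047, and 1336 and 1062 in A549, against 575 and 481. Voom with library totals called 2451 and 3706, and 1466 and 1235, and with median-of-ratios factors 3185 and 2788, and 1426 and 1284. For the difference between the lines, the pseudocount of 0.1 gave 1451 positive and 2788 negative, against 827 and 1407. For H460 against A549 it gave 1363 and 2251 before treatment, against 763 and 1188, and 1806 and 3860 after, against 1069 and 2232. Depth limits CDKN2A and CDKN2B in all groups, CDKN1C in both non-treated lines, and GADD45G in non-treated A549.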
